A study of Mus musculus with 116 samples.

Results

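Heat shock and endoplasmic reticulum (ER) chaperones were followed through mouse oocytes and preimplantation embryos by 10 genes, chosen by symbol: Hspa8, Hspa1a, Hspa1b, Hspa5, Hsp90aa1, Hsp90ab1, Hsp90b1, Dnajb1, Hsf1 and Hsf2. All 10 were found among the 24028 symbols that the 4 deposited tables share. The series examined binding of RNA polymerase II and transcription around genome activation, and 7 of its 116 samples, the RNA libraries, were used here. The values were the authors' FPKM, fragments per kilobase of transcript and 1000000 mapped fragments. Each of 5 total RNA libraries held about 100 oocytes or embryos and was depleted of ribosomal RNA: MII oocytes (13 h after the ovulating injection of hCG), PN5 zygotes at the late pronuclear stage (30 h), early 2-cell embryos (36 h) and 2 groups of late 2-cell embryos. The late 2-cell embryos were taken as zygotes at 23 h. For 14 h the control group (Con) was kept in 0.1% DMSO, and the group labelled mTBE in 60 uM DRB, a kinase inhibitor that blocks elongating RNA polymerase II. Both were then released and grown for 12 h. The labels do not expand mTBE, and the deposited table heads that column with DRB. The 2 remaining libraries, labelled ICM (inner cell mass, 98 h), were made with Smart-seq2 from polyadenylated RNA. The 7 samples used were all wild-type and came from females 8 weeks old, and their embryos were crosses of C57BL/6N females with PWK males.

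Chaperones bind unfolded proteins and use ATP to help them fold. The Hsp70 family (Hspa genes) works with J-domain partners such as Dnajb1, which deliver clients and trigger ATP hydrolysis, and passes some clients on to Hsp90. Some members are made at all times, others mainly after heat or other damage, when heat shock factors bind to heat shock elements in their promoters. The ER has its own members, Hspa5 (BiP) and Hsp90b1 (Grp94), which are induced by the unfolded protein response through ER stress response elements. In the mouse, Hsp70 transcripts are among the earliest made when the embryonic genome is switched on, and Hsf1 is a maternal factor of the egg.

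Upstream sequences were taken from RefSeq (build GRCm38.p6), because heat shock and ER stress elements are the classical way to tell inducible cytosolic from ER chaperone genes. Of the 10 genes, 6 had an entry: Hspa1a, Hspa1b, Hspa5, Hsp90b1, Dnajb1 and Hsf2. The 250 bases before each start site were searched on both strands for the core of a heat shock element, GAANNTTC, and for the ER stress response element, CCAAT and CCACG with a gap of 9 bases, which itself holds a CCAAT box. Capitals mark the matches.
Hspa1a: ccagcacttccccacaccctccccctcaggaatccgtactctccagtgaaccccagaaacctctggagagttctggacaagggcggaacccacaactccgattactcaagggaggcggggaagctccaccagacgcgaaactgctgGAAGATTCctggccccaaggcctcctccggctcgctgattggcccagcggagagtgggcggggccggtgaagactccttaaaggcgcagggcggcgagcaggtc
Hspa5: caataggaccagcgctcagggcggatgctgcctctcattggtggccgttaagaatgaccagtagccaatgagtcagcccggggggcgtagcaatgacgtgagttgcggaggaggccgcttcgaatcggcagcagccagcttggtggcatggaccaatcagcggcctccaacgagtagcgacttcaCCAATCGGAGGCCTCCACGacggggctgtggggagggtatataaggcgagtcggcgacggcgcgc
Hsp90b1: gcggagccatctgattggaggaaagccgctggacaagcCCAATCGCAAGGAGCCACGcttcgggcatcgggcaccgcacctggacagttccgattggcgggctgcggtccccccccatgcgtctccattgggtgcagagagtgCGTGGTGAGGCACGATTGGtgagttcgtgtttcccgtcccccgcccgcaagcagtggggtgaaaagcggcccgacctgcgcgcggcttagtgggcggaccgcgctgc
These lie at chr17:34972157-34972406 on the minus strand (Hspa1a), chr2:34771840-34772089 on the plus strand (Hspa5) and chr10:86705445-86705694 on the minus strand (Hsp90b1).

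The heat shock element core stood in the promoters of Hspa1a and Hspa1b and in none of the other 4 members searched. It was also found in 6.69% of all 32851 promoters in the table, so it is a common string. The upstream sequence of Hspa1b, 250 bases long, was identical to that of Hspa1a at 247 positions. The ER stress response element was rarer, in 37 promoters or 0.113%, and Hspa5 held 1 match and Hsp90b1 held 2. The promoters with this element belonged to 35 symbols, of which 9 are in the lists of ER folding and ER degradation genes used below (33 genes, 27 with an entry): Calr, Canx, Creld2, Derl3, Dnajc3, Hsp90b1, Hspa5, Pdia6 and Syvn1. A CCAAT box stood in a promoter of all 6 members with an entry, against 33.8% of all promoters. These matches describe letters only and are not binding sites.

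The libraries were first checked against markers. All 8 oocyte markers were at 1 FPKM or more in each of the 5 total RNA libraries, so at that cut they do not separate these stages. 2-cell markers reached 1 FPKM for 0 of 8 in MII and 2 of 8 in PN5. They did so for 6 of 8 in early 2-cell and 8 of 8 in both late 2-cell libraries. Their summed level was 315 FPKM in Con and 166 in mTBE. Both libraries labelled ICM held all 8 ICM markers, but also all 8 trophectoderm markers, summed to 1807 and 1547 FPKM against 22.2 to 81.1 in the total RNA libraries. Trophectoderm is the outer layer of the blastocyst, so these libraries are not ICM alone by their markers, and its part in the results was not tested. Of 10 cumulus and granulosa markers, 1 or 2 were at 1 FPKM or more in MII, PN5, early 2-cell and the ICM libraries and 7 in each late 2-cell library (33.6 FPKM in sum in Con and 25.4 in mTBE), where Fshr and Ptx3 in Con and Inha and Ptx3 in mTBE were listed at 0. FPKM gives a share of a library, so less RNA per embryo, or fewer cells with a transcript, cannot be told apart from a smaller share.

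Hspa8 (Hsc70), the constitutive Hsp70 of the cytosol, had the widest range. It was at 166 FPKM in MII, 4.86 in PN5, 9.21 in early 2-cell, 7.33 in late 2-cell Con, 3.76 in mTBE, 1301 in ICM replicate 1 and 1371 in ICM replicate 2. It thus stood high in the oocyte and in the ICM libraries and low in each library between them. Its place was also taken among the genes at 1 FPKM or more of its own library. It went from percentile 97.7 in MII to 28.7 in PN5, 58.7 in early 2-cell, 44.8 in Con and 33.7 in mTBE. In the ICM libraries it was 99.7 and 99.6. A percentile depends on the scaling of a table only through that cut. The cut was passed by 10128 genes in MII, 9997 in PN5, 9505 in early 2-cell, 12472 in Con and 13022 in mTBE. The low values came from 2 separately made tables. Hspa8 has many processed pseudogenes, and how reads that match several places were assigned is not given in the sources used here, so its level is uncertain. The 3 genes whose profile over the 6 groups lay closest to it were Cox7c, Rpl38 and Rpl19 (root mean square difference of centred log2 profiles 0.50, 0.61 and 0.65), and Cox7c was listed at 0 in PN5 and mTBE and was at 41.5 FPKM in MII.

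Hsp90ab1, the constitutive cytosolic Hsp90, was level through the first cleavage. It was at 92.0 FPKM in MII, 116 in PN5, 93.7 in early 2-cell, 85.0 in late 2-cell Con, 39.6 in mTBE, 1494 in ICM replicate 1 and 1096 in ICM replicate 2. The mTBE library was the lowest of the 7 and the other 4 total RNA libraries lay close together. Its percentile was 94.0 in MII, 94.2 in PN5, 96.5 in early 2-cell, 94.3 in Con and 87.4 in mTBE.

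**Figure D1:**
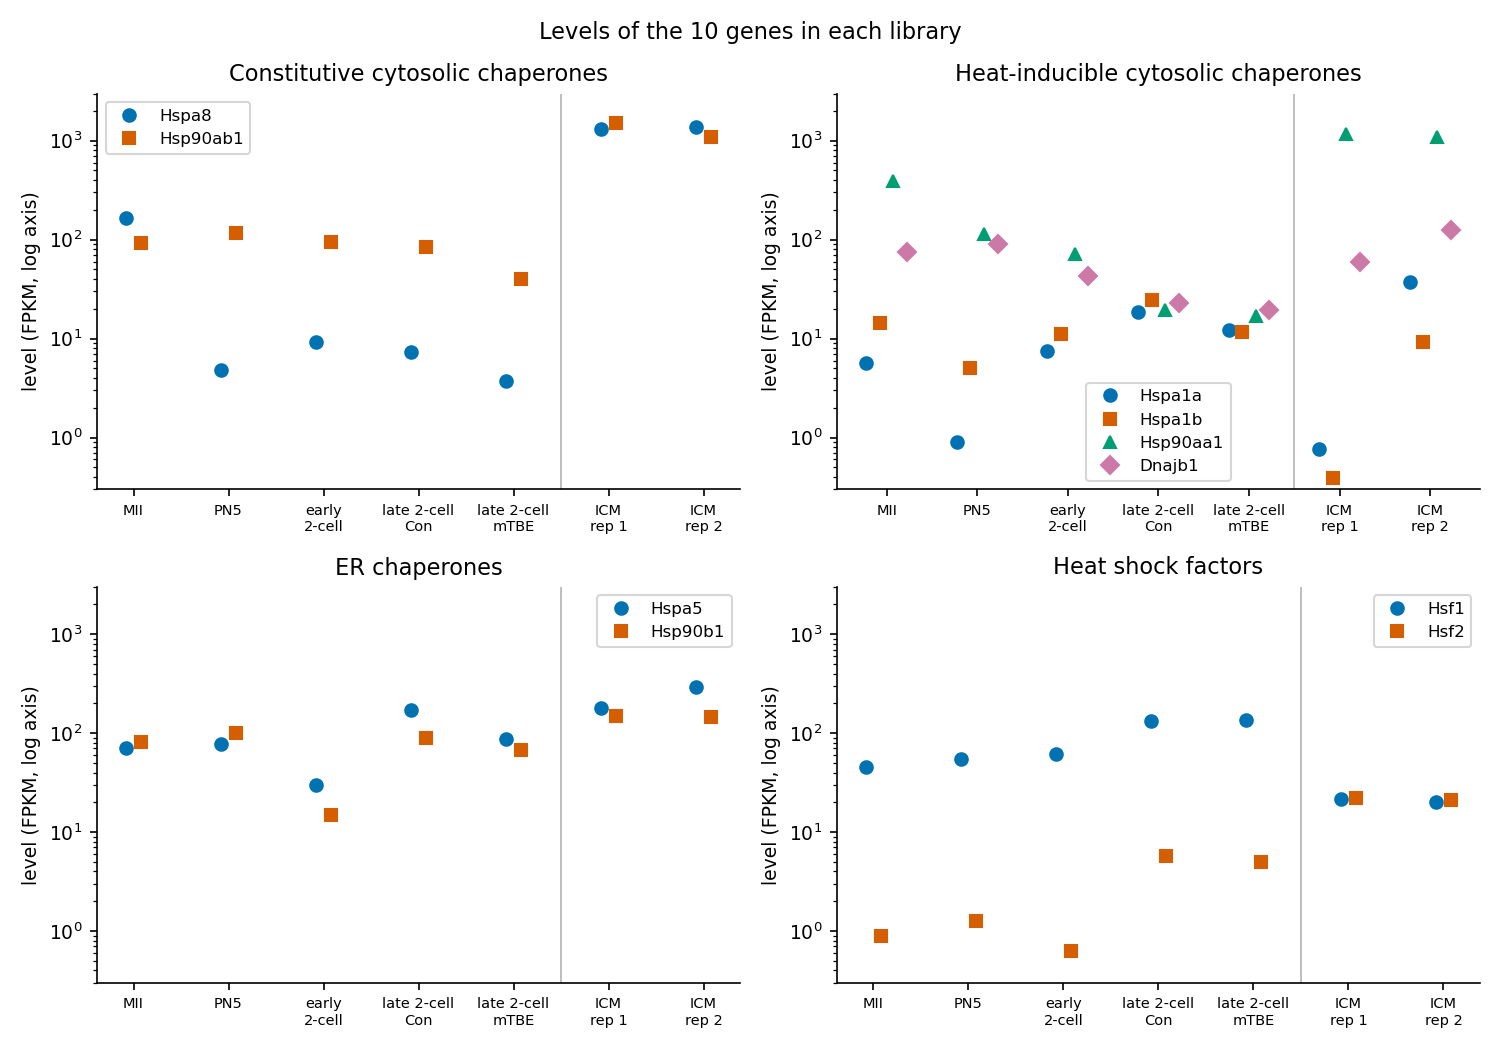
FPKM (log axis) of the 10 genes in each of the 7 libraries, 1 point per gene and library, in 4 panels by class; the grey line separates total RNA libraries from the polyadenylated RNA libraries labelled ICM. Hspa8 falls from 166 FPKM in MII to between 3.76 and 9.21 in the other total RNA libraries, and Hsf1 is highest in the late 2-cell libraries at 132 and 135.

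Hsp90aa1 is the inducible cytosolic Hsp90 and is also abundant in germ cells. Its level was 388 FPKM in MII, 113 in PN5, 72.3 in early 2-cell, 19.2 in Con, 16.9 in mTBE, then 1177 and 1102 in the ICM pair. Each later total RNA stage was lower than the one before, but by percentile PN5 (93.9) and early 2-cell (94.6) were close, below MII (99.5) and above Con (69.5). Dnajb1 (Hsp40), the J-domain partner of the inducible Hsp70, was at 75.6 FPKM in MII, 89.4 in PN5, 43.3 in early 2-cell, 22.8 in Con, 19.4 in mTBE, then 60.1 and 125 in the ICM pair. It too was lowest in both late 2-cell libraries.

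The inducible Hsp70 genes, like Hsp90aa1, were lower in PN5 than in MII, but unlike Hsp90aa1 they were higher again in the 2-cell libraries. Hspa1a was at 5.61 FPKM in MII, 0.894 in PN5, 7.47 in early 2-cell, 18.6 in Con, 12.2 in mTBE, then 0.767 and 37.4 in the ICM pair. Hspa1b was at 14.3 FPKM in MII, 5.04 in PN5, 11.1 in early 2-cell, 24.5 in Con, 11.5 in mTBE, and 0.393 and 9.13 in the ICM libraries. Among the total RNA libraries both were lowest in PN5 and highest in late 2-cell Con. The genes are near-identical copies, so reads could be split between them, and their sum is the firmer value: 19.9 FPKM in MII, 5.94 in PN5, 18.6 in early 2-cell, 43.1 in Con, 23.7 in mTBE, and 1.16 and 46.5 in the ICM libraries.

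Hspa5, the main Hsp70 of the ER lumen, was at 70.7 FPKM in MII, 78.4 in PN5, 30.0 in early 2-cell, 173 in Con, 88.1 in mTBE, then 179 and 291 in the ICM pair. Hsp90b1, its Hsp90 counterpart in the ER, was at 81.5 FPKM in MII, 101 in PN5, 14.8 in early 2-cell, 90.2 in Con, 67.9 in mTBE, and 149 and 146 in the ICM libraries. Both were lowest in early 2-cell embryos, and among the total RNA libraries Hspa5 was highest in Con. The percentile of Hspa5 in its library was 91.8 in MII, 90.2 in PN5, 84.7 in early 2-cell, 98.0 in Con and 94.8 in mTBE, and that of Hsp90b1 was 93.1, 92.9, 70.6, 94.7 and 92.9 in the same order.

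Hsf1, the master factor of the heat shock response, was at 45.1 FPKM in MII, 55.1 in PN5, 61.6 in early 2-cell, 132 in Con, 135 in mTBE, then 21.4 and 20.3 in the ICM pair. Hsf2, a second factor known from development and the germ line, was at 0.900 FPKM in MII, 1.27 in PN5, 0.635 in early 2-cell, 5.76 in Con, 5.03 in mTBE, and 22.3 and 21.3 in the ICM libraries. Hsf1 was thus far above Hsf2 in each total RNA library, and level with it in both ICM libraries. Among their relatives and partners Hsf5 was highest in PN5 at 13.6 FPKM, and Hsbp1, a small protein that binds heat shock factors, was at 37.2 FPKM in MII, 58.3 in PN5, 41.1 in early 2-cell, 65.7 in Con, 107 in mTBE, and 184 and 203 in the ICM libraries.

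Ratios between 2 genes of the same library do not depend on the scaling between tables. Hsp90ab1 over Hsp90aa1 was 0.237 in MII, 1.03 in PN5, 1.30 in early 2-cell, 4.42 in Con, 2.34 in mTBE, then 1.27 and 0.995 in the ICM pair. The inducible form was the more abundant Hsp90 transcript in MII and the constitutive form in both late 2-cell libraries. Hsf2 over Hsf1 was 0.020 in MII, 0.023 in PN5, 0.010 in early 2-cell, 0.044 in Con and 0.037 in mTBE, against 1.05 in each ICM library. Hspa5 over Hspa8 was 0.425 in MII, 16.1 in PN5, 3.26 in early 2-cell, 23.6 in Con, 23.4 in mTBE, then 0.138 and 0.212 in the ICM pair, so the ER gene exceeded the cytosolic one in PN5 and at the 2-cell stage. This ratio carries the uncertainty of Hspa8. Hsp90b1 over Hspa5 stayed within a narrower range, 0.494 in early 2-cell to 1.29 in PN5. The summed inducible Hsp70 genes over Hspa8 were 0.119 in MII, 1.22 in PN5, 2.01 in early 2-cell, 5.88 in Con, 6.31 in mTBE, and 0.00089 and 0.034 in the ICM libraries.

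**Figure D2:**
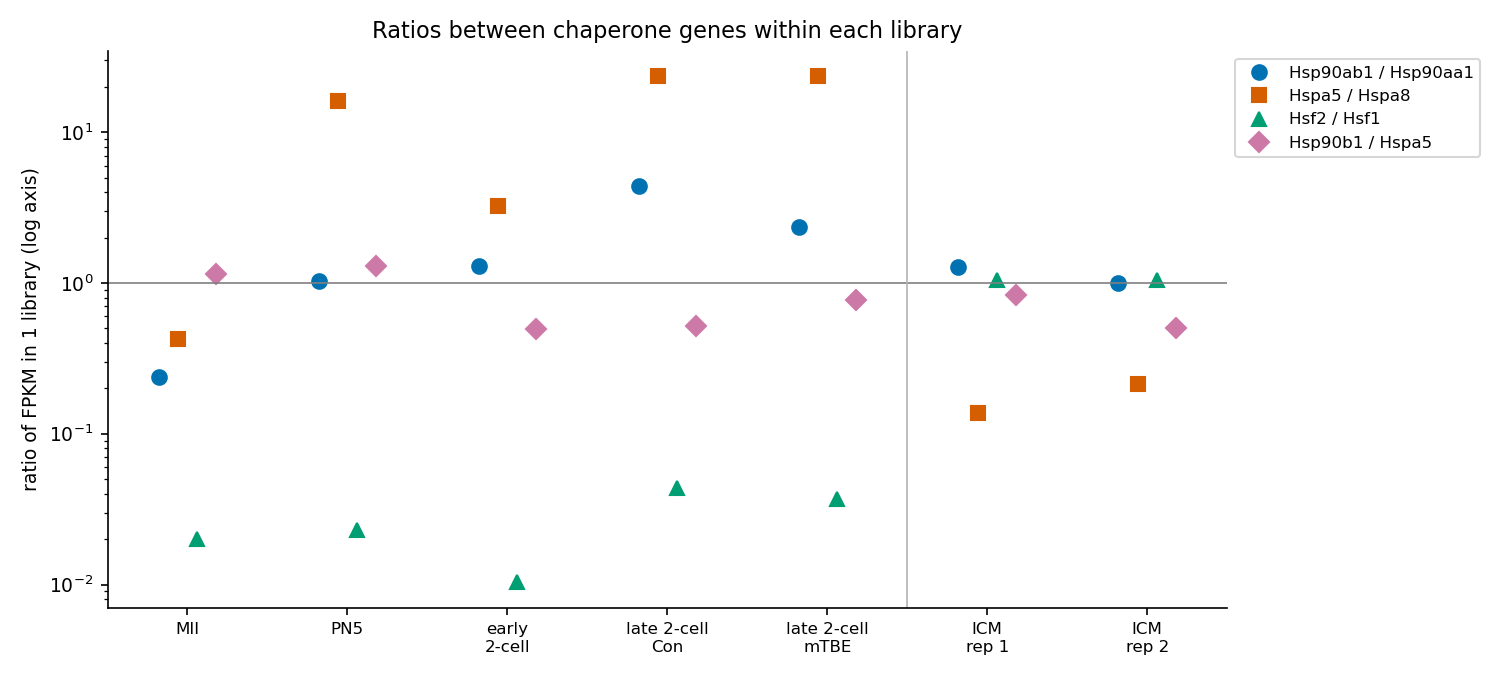
Ratio of FPKM of 2 genes within each of the 7 libraries (log axis), 1 point per ratio and library; the horizontal line is a ratio of 1 and the vertical line separates total RNA from the ICM libraries. Hsf2 over Hsf1 lies between 0.010 and 0.044 in total RNA and at 1.05 in both ICM libraries.

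The first comparison asked how late 2-cell embryos stood after the temporary block with DRB. Differences were taken between values of log2(FPKM + 1), a scale that makes folds of low genes look smaller. Among genes that reached 1 FPKM in either library, a difference of 1 or beyond, about 2-fold, was called higher or lower. Both libraries stand in the same table, but each group is 1 library, so no p-value was calculated and no difference has a replicate check. In mTBE, 9 of the 10 genes lay below Con and Hsf1 above, and the median difference was -0.49, against -0.05 over all 13726 genes measured. By the size rule 2 of 10 were lower, Hsp90ab1 (-1.08) and Hspa1b (-1.02), and 0 were higher. The sum of Hspa1a and Hspa1b, the firmer value, was 43.1 FPKM in Con and 23.7 in mTBE, less than 2-fold apart. Over all genes 9.99% were lower and 5.57% higher. Genes with 5 FPKM or more in both had a median log2 ratio of -0.10, and with that shift set to 0 the differences of Hsp90ab1 (-0.98) and Hspa1b (-0.93) fell short of the rule. After rescaling to a common sum 3 were lower, with Hspa5 at the threshold beside these 2.

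Hspa5 was just outside that rule at -0.96, from 173 FPKM in Con to 88.1 in mTBE, and Hspa8 was at -0.81, with both of its levels low. Hspa1a differed by -0.57 and Hsp90b1 by -0.40. The smallest differences were those of Dnajb1 (-0.22), Hsp90aa1 (-0.18), Hsf2 (-0.17) and Hsf1 (0.04). The genes close to 2-fold lower therefore included constitutive (Hspa8, Hsp90ab1) and ER (Hspa5) chaperones. Of the inducible ones only Hspa1b was among them, a near-identical copy of Hspa1a, which was at -0.57. Both factors, Hsp90aa1 and Dnajb1 differed little. The only replicates, the 2 ICM libraries, were made by another method, and between them Hspa1a differed by 4.44, Hspa1b by 2.86, Dnajb1 by 1.05 and Hspa5 by 0.70, and the other 6 genes by 0.45 or less in size. The difference of Hspa1b between mTBE and Con (-1.02) was thus smaller than that between its ICM replicates.

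**Figure D3:**
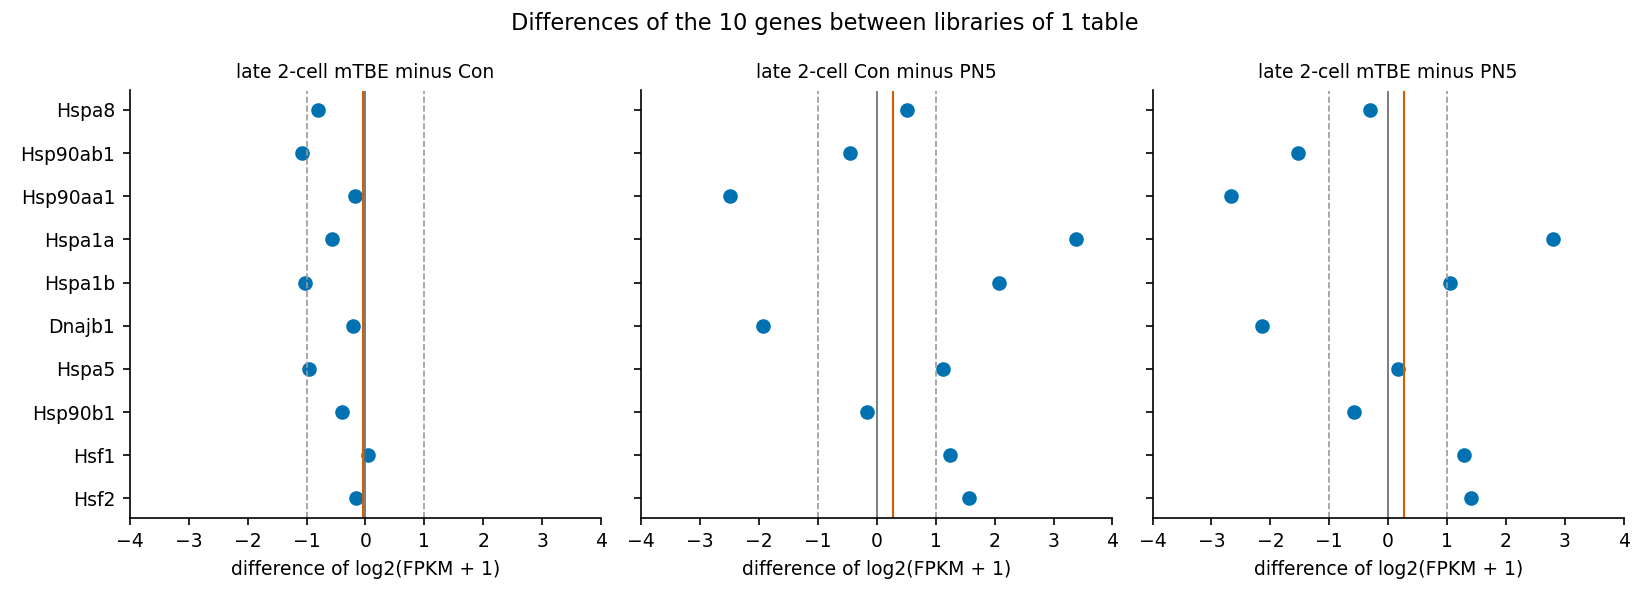
Difference of log2(FPKM + 1) of the 10 genes in 3 comparisons among libraries of 1 table, 1 point per gene; dashed lines mark differences of 1 and -1 and the orange line the median of all measured genes. In the left panel Hsp90ab1 (-1.08) and Hspa1b (-1.02) pass the line at -1; the middle and right panels share the PN5 library.

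Beside the members, 10 lists of related genes were counted. Of 22 ER chaperones and folding enzymes, 19 lay below Con in mTBE, where 53.4% of all genes did, with a median of -0.69. By the size rule 5 were lower and 0 higher, beside 9.99% and 5.57% of all genes. Those 5, named after their values were seen, were P4hb, a protein disulfide isomerase (105 FPKM in Con and 38.0 in mTBE), Dnajb11 (19.2 and 7.46) and Dnajb9 (100 and 49.6), both J-domain partners of Hspa5, Sdf2l1 (48.9 and 21.7) and Hyou1, an ER member of the Hsp110 family (48.9 and 23.9). With the median log2 ratio set to 0, P4hb, Dnajb11 and Sdf2l1 were still lower, 3 of 22, and 19 still lay below Con (median -0.61). Of all 13664 genes measured at that setting 1133 were lower, and 47.5% lay below Con. With a common sum 7 of the 22 were lower, and 2106 of all genes were, in place of 1371. The lectin chaperone Calr (154 and 76.4, a difference of -0.997) narrowly missed the rule. Its relative Canx (194 and 161) and Creld2 (75.2 and 45.3) were within 2-fold. Of the 9 ER genes named above for the ER stress response element, 8 were below Con. The lists that hold them had similar shares, 19 of 22 ER folding genes and 8 of 11 genes of ER-associated degradation. All 20 measured genes with the element in their promoter, ER genes or not, had a median of -0.19, with 0 higher and 0 lower by the size rule.

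**Figure D4:**
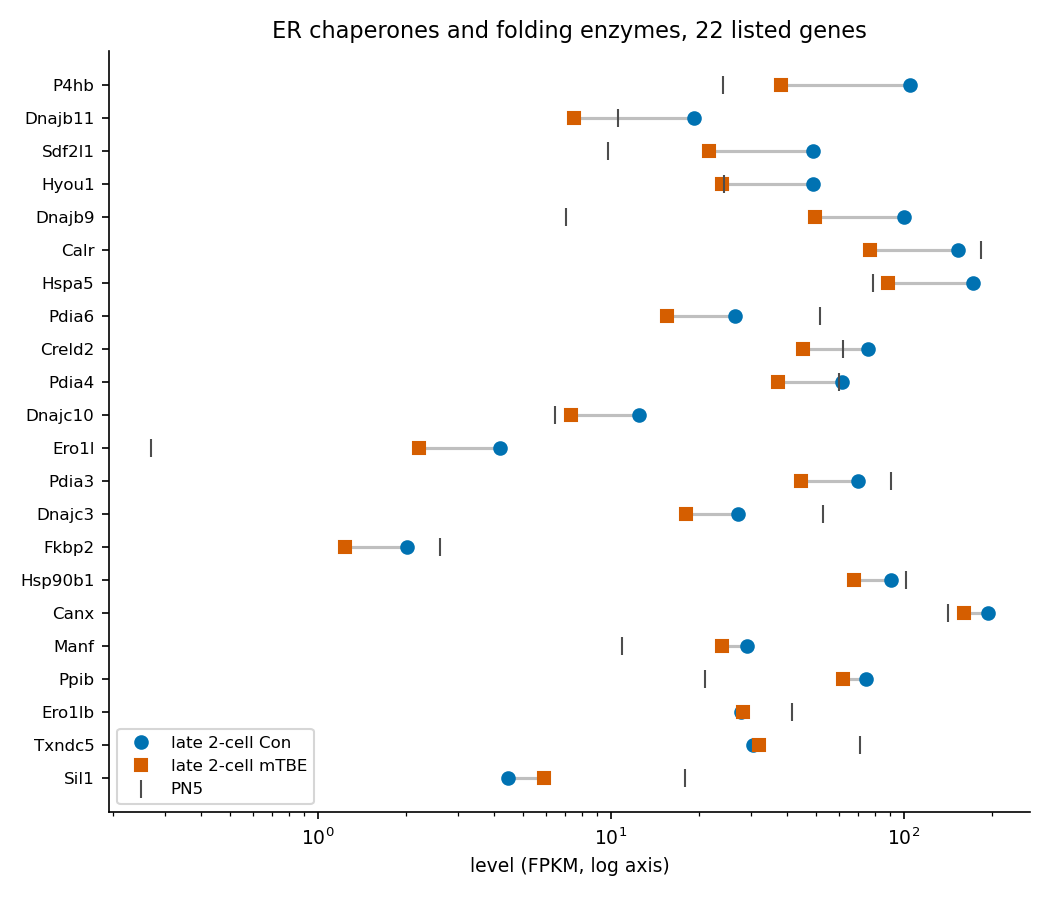
FPKM (log axis) of the 22 listed ER chaperones and folding enzymes in late 2-cell Con (circles), mTBE (squares) and PN5 (ticks), ordered by the difference between mTBE and Con. The square lies left of the circle for 19 of 22 genes, and P4hb shows the widest gap, 105 against 38.0 FPKM.

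The other lists had medians closer to that of all genes. The median was -0.22 for 10 cytosolic Hsp70 and Hsp110 genes (1 lower, 0 higher), -0.20 for 14 genes of Hsp90 and its co-chaperones (2 lower, 0 higher), -0.13 for 14 J-domain proteins (1 lower, 0 higher), -0.23 for 10 mitochondrial chaperones and proteases (2 lower, 0 higher) and -0.27 for 11 genes of ER-associated degradation (0 lower, 0 higher). For 12 sensors and targets of the unfolded protein response it was -0.26, with 3 lower and 0 higher. Among the latter Ern1, the sensor Ire1, was at 72.0 FPKM in Con and 60.4 in mTBE, Atf4 at 155 and 132, and Trib3, a target of Atf4, at 25.7 and 7.63. The list for nucleotide exchange and the ubiquitin link had a median of -0.36 over 9 genes (3 lower, 1 higher), with Hspbp1 at 14.1 and 3.29 FPKM. The 4 measured small heat shock proteins (0.29, 1 lower and 1 higher) and the 5 measured heat shock factors and partners (0.54, 0 lower and 0 higher) had positive medians. Hspb11, despite its name a protein of intraflagellar transport, had the lowest difference of these lists (-2.17), at 10.2 and 1.48 FPKM. The most abundant mitochondrial chaperone, Hspa9 (mortalin), was at 81.4 and 64.1 FPKM. Edem2, of ER-associated degradation, was at 93.8 and 77.5, and Dnajc21, a J-domain protein, at 90.3 and 77.4. Among the abundant co-chaperones Ptges3 (p23) was at 153 and 222 FPKM and Ahsa1, an activator of Hsp90, at 143 and 161.

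From PN5 to late 2-cell Con, within the same table, 5 of the 10 members stood higher and 2 lower. Over all 13022 genes measured 30.5% were higher and 17.0% lower, and the median difference was 0.28. PN5 zygotes were harvested at 30 h and Con after DMSO and further culture, so stage and culture cannot be told apart. Hspa1a went from 0.894 to 18.6 FPKM (a difference of 3.37), Hspa1b from 5.04 to 24.5 (2.08), Hsf2 from 1.27 to 5.76 (1.57), Hsf1 from 55.1 to 132 (1.25) and Hspa5 from 78.4 to 173 (1.13). The lower genes were Hsp90aa1 (-2.50) and Dnajb1 (-1.93). Hspa8 (0.51), Hsp90b1 (-0.17) and Hsp90ab1 (-0.45) were within 2-fold.

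The mTBE library set against the same PN5 library, which both comparisons share, had Hspa1a at 2.80, Hspa1b at 1.05, Hsf2 at 1.41 and Hsf1 at 1.28, and Hsp90aa1 at -2.68, Dnajb1 at -2.15 and Hsp90ab1 at -1.53. That made 4 of 10 higher and 3 lower, against 29.4% and 17.7% of all genes. Hspa5 was at 0.17, a small difference, with 88.1 FPKM in mTBE against 78.4 in PN5. Hsf1, in contrast, was as high in mTBE as in Con.

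The lists also held genes on both sides between PN5 and Con, to be read beside the 30.5% higher and 17.0% lower of all genes. Of 14 J-domain proteins 7 were lower and 1 higher (median -0.85), with Dnajb4 at 286 and 58.8 FPKM and Dnajb6 at 61.1 and 39.2, while Dnaja2 was at 131 and 142. The list for nucleotide exchange and the ubiquitin link had 4 of 8 higher and 0 lower. In it Bag3, a heat-inducible co-chaperone of Hsp70, was at 0.0385 FPKM in PN5 and 16.1 in Con, and St13 was at 95.4 and 70.3. Of 12 unfolded protein response genes 7 were higher and 2 lower (median 1.06), with Trib3 at 0.264 and 25.7 FPKM and Ppp1r15a, a phosphatase subunit that reverses translational arrest, at 17.3 and 64.8, while Ern1 was at 197 and 72.0. ER folding genes had 7 higher and 2 lower of 22 (median 0.36), a share of higher genes near that of all genes. Nudc, a co-chaperone of Hsp90, was at 113 and 11.8 FPKM.

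Steps that set separately made tables side by side are given with their shift. From MII to early 2-cell, 4 of 9 measured genes were lower and 0 higher, against 28.8% and 3.98% of all genes: Hspa8 (-4.04), Hsp90aa1 (-2.41), Hsp90b1 (-2.38) and Hspa5 (-1.21). Here the shift between tables, measured as above, was -0.57. With it set to 0 Hspa5 was at -0.65, within the rule, and the other 3 were still lower. By the same rescaling the share of higher genes among all called moved from 12.1% to 36.0%, and to 44.4% with values rescaled to a common sum. In this step 19 of 21 ER folding genes were lower and 0 higher, with a median of -1.58, and 5 of 13 genes of Hsp90 and its co-chaperones were lower. With the shift set to 0 these counts were 12 of 21 (median -1.11) and 1 of 13, and 1390 of all genes were lower in place of 3075. Mitochondrial chaperones (7 of 10 lower) and ER-associated degradation (6 of 10) fell to 1 of 10 each at that setting. Over all 10 lists together, without that setting, 54 of 100 measured genes were lower and 1 higher.

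From MII to PN5, 4 of 10 genes were lower and 0 higher (9.23% and 8.77% of all genes, median log2 ratio 0.33): Hspa8 (-4.84), Hspa1a (-1.80), Hsp90aa1 (-1.77) and Hspa1b (-1.34). Both ER genes, Hsp90ab1, Dnajb1 and both factors differed by 0.33 or less. Of all called genes 48.7% were higher, 21.3% with that shift set to 0 and 27.4% with a common sum. From early 2-cell to late 2-cell Con, 6 of 10 were higher and 1 lower, beside 49.6% and 8.62% of all genes: Hsp90b1 (2.53), Hspa5 (2.49), Hsf2 (2.05), Hspa1a (1.21), Hsf1 (1.09) and Hspa1b (1.08) were higher and Hsp90aa1 (-1.86) lower. The shift was 0.60, and with it set to 0 only Hsp90b1 (1.95), Hspa5 (1.90) and Hsf2 (1.78) of the 10 passed as higher, and Dnajb1 (-1.49) joined Hsp90aa1 (-2.45) as lower. The share of higher genes among all called was 85.2%, 70.6% with the shift set to 0 and 66.5% with a common sum.

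The libraries labelled ICM differ from Con in stage, tables and library method at once, and these cannot be told apart. The log2(FPKM + 1) values of both replicates were averaged, not their FPKM. By that mean 5 members stood higher and 3 lower, where 24.7% and 47.3% of all genes did. Hspa8 (7.33), Hsp90aa1 (5.82), Hsp90ab1 (3.90), Dnajb1 (1.89) and Hsf2 (1.76) were higher, and Hspa5 (0.40) and Hsp90b1 (0.70) were within 2-fold. Hsf1 (-2.61) was lower. Hspa1b (-2.76) was lower too, but its size depended on the replicate, -1.33 without replicate 1 and -4.19 without replicate 2. Hspa1a was at -1.25 but rested on replicate 1: without it the difference was 0.97, and without replicate 2 it was -3.47. By mean FPKM Hspa1a was level, at 19.1 in the ICM libraries and 18.6 in Con. The 3 cytosolic genes Hspa8, Hsp90aa1 and Hsp90ab1 were at percentile 99.4 or above in both ICM libraries. Of 10 mitochondrial chaperones 7 were higher than in Con and 0 lower, and 9 of 14 genes of Hsp90 and its co-chaperones were higher and 2 lower. Other lists had more lower genes than higher. ER folding had 4 higher and 8 lower of 22, and ER-associated degradation 3 and 6 of 11. The unfolded protein response had 2 and 6 of 12, and cytosolic Hsp70 and Hsp110 genes 3 and 4 of 9. Over all lists together 42 of 112 measured genes were higher and 36 lower.

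The 2 ICM libraries are the only replicates, and nothing in the labels says whether they came from separate collections. Among the 10 genes 3 were higher in replicate 2 and 0 lower, beside 2.31% and 2.79% of all 9983 genes measured. These were Hspa1a (0.767 and 37.4 FPKM, a difference of 4.44), Hspa1b (0.393 and 9.13, 2.86) and Dnajb1 (60.1 and 125, 1.05). Dnajb1 was at 0.97, within the rule, with values rescaled to a common sum. Hspa5 was at 179 and 291 FPKM (0.70). The other 6 differed by 0.45 or less in either direction, Hsp90ab1 the most.

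Over the 105 measured genes of the chaperone lists, 6 were higher in replicate 2 and 0 lower. Beside the 3 members these were Herpud1, a target of the unfolded protein response (2.14 and 14.1 FPKM), the small heat shock protein Hspb1 (6.35 and 23.6) and Manf, a secreted ER stress protein (35.3 and 82.1), of which Herpud1 and Manf were named after their values were seen. Other inducible genes did not differ by that rule: Hsph1 was at 131 and 109 FPKM and Bag3 at 38.3 and 40.1. Of all called genes 45.3% were higher, 63.7% with the median log2 ratio of -0.15 set to 0 and 34.4% with a common sum. Oocyte markers were at 1 FPKM or more for 1 of 8 in replicate 1, where 5 were listed at 0, and for 4 of 8 in replicate 2, summing to 11.0 and 33.9 FPKM. Their part in the difference was not tested.

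**Figure D5:**
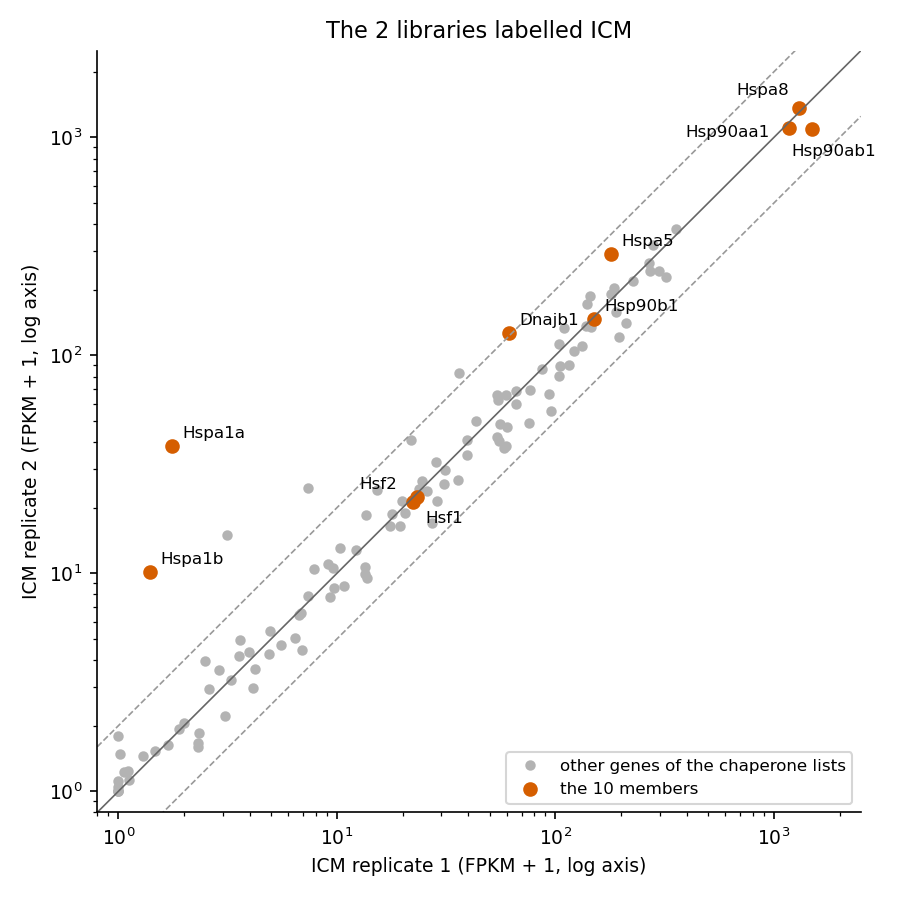
FPKM + 1 of the genes of the chaperone lists in ICM replicate 1 (x) and replicate 2 (y), both log axes, with the 10 members in orange; the solid line marks equal values and the dashed lines 2-fold differences. Hspa1a (0.767 and 37.4 FPKM) and Hspa1b (0.393 and 9.13) lie far above the lines and Dnajb1 just above.

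For each gene the 3 profiles most like its own were sought over 6 groups, among 8718 genes at 10 FPKM or more in a group. The ICM libraries entered as the mean of their FPKM. Likeness was the root mean square difference of centred log2(FPKM + 1) values. The closest gene was Trmt10c for Hspa5 (0.11), Ciao1 for Dnajb1 (0.10), Sike1 for Hsf2 (0.09), Slc25a38 for Hsf1 (0.12), Hist1h2bb for Hspa1a (0.17), Dcaf17 for Hsp90b1 (0.18), Trim71 for Hspa1b (0.18), Pfn1 for Hsp90ab1 (0.28) and Mrps36 for Hsp90aa1 (0.53). None of the 10 members was among the 3 closest of another. Hspa8 and Hsp90aa1 had the least close neighbours.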

How the data were processed

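The authors deposited FPKM per gene symbol in 4 tables. One holds PN5 with Con and mTBE and another the ICM pair, while MII and early 2-cell stand alone. Per the submitters' processing notes the tools were CASAVA 1.8, TopHat2 2.1.1 and Cufflinks 2.1.1 with build mm9, without a role for each. Column names were matched to sample titles, and the MII and early 2-cell tables are listed with their samples. Rows repeating a symbol were summed (497 in the shared total RNA table, 495 in each single-library table).

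Differences were calculated on log2(FPKM + 1) with a minimum of 1 FPKM in at least 1 library, in 8 comparisons, with Python 3.11.15 and pandas 2.3.3. The size rule was run on simulated data with large set changes and little noise. That checks only that the rule works as written, not its error at the spread of real libraries. No p-value was calculated, because each total RNA group is 1 library. Read depth is unknown. In the late 2-cell pair at most 16 of 580 genes below 0.3 FPKM lay at the same ratio, and in the ICM pair 199 of 1972 did, which puts replicate 1 at 2.11 times the depth of replicate 2.

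The members and lists were chosen with earlier results of these data known. Named were all members, up to 4 listed genes per list with the highest mean over total RNA libraries, and up to 3 listed genes in each direction with the largest difference at 10 FPKM or more, for mTBE against Con and Con against PN5. Alternatives were a pseudocount of 0.1, a minimum of 5 or none, 2 rescalings and the highest of repeated rows. List counts under the rescalings were added after the data were seen. The other 109 samples were not analysed here. RefSeq promoters are of GRCm38.p6, and no coordinate was moved between builds.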

Additional observations from a re-analysis of the deposited data

How the results depend on the processing

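Recalculated counts of members higher or lower stayed within 1.5 times the reported count in 95 cases and did not in 5, all 5 under rescaling. With the median log2 ratio set to 0, the count lower in mTBE than in Con went from 2 to 0, and from early 2-cell to late 2-cell Con the counts were 3 higher and 2 lower in place of 6 and 1. After rescaling to a common sum of 1000000 that step gave 3 higher and 3 lower, and the count lower in mTBE than in Con was 3. Without either ICM replicate 5 members were higher than in Con, and 2 to 3 were lower. Among single-gene differences 468 stayed close, 31 moved and 1 reversed, Hspa1a in ICM against Con, which was 0.97 without replicate 1 and -3.47 without replicate 2. The list counts were recalculated under both rescalings, a choice made after seeing the data. For mTBE against Con the median setting gave 3 lower ER folding genes in place of 5, 1 of Hsp90 and its co-chaperones in place of 2, and 0 cytosolic Hsp70 and Hsp110 genes in place of 1. The common sum gave 3 lower small heat shock proteins in place of 1, 1 lower gene of ER-associated degradation in place of 0, and 1 higher cytosolic Hsp70 or Hsp110 gene in place of 0. Counts over all genes moved too. For mTBE against Con, 765 higher and 1371 lower genes became 245 and 1088 with a minimum of 5 FPKM (18.4% higher in place of 35.8%), 1432 and 1937 with a pseudocount of 0.1, and 1859 and 2106 (46.9%) with a common sum. The minimum of 5 FPKM gave 2331 higher genes in place of 3970 for Con against PN5, 1818 in place of 3963 for mTBE against PN5, and 173 in place of 425 for early 2-cell against MII. Setting the median to 0 gave 781 higher and 1390 lower for early 2-cell against MII (425 and 3075 as reported), 378 and 1398 for PN5 against MII (939 and 989), 4974 and 2075 for Con against early 2-cell (6504 and 1132), and 288 and 164 for the ICM pair (231 and 279). A common sum gave 2038 and 2547, 706 and 1870, 6102 and 3073, and 367 and 699 in the same order. For the ICM pair a pseudocount of 0.1 gave 395 and 688, and a minimum of 5 FPKM 126 and 181. No paired analysis was possible because each total RNA group has 1 library. With 1 library a group and unknown depth, no difference between these groups has an error.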
